A study of Bos grunniens with 6 samples.

Results

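Among the RNA-binding proteins expressed in yak testis, *YTHDF2*, *RBM11* and *DDX19A* were described here as 3 of the 20953 genes of the expression table, together with the 5 of 16318 compared m6A peaks that carry their names. *RBM11* (ENSBGRG00000000023) and *DDX19A* (ENSBGRG00000018020) were taken by their gene IDs, and *YTHDF2* (ENSBGRG00000015573) by its symbol in the supplementary tables of the study. No measured value was used to choose them, although earlier results of these data were known when they were chosen.

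The study compared the testis of 3 juvenile yaks (*Bos grunniens*) aged 6 months, before sexual maturity (Y6M), with that of 3 sexually mature yaks aged 30 months (Y30M). Both groups were healthy males from the same county, with no other treatment named, and the replicate numbers 1 to 3 name different animals in each group. Polyadenylated RNA of each yak was fragmented, and 1 part was immunoprecipitated with an antibody against *N*6-methyladenosine (m6A) to give an IP library while the other part gave an input library, so that 12 libraries were sequenced (m6A-seq). Expression was read from the 6 input libraries as FPKM, the fragments of a gene scaled by transcript length and library depth.

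The m6A mark is an RNA modification that is written mainly near stop codons and in 3′ untranslated regions and is read by proteins of the YTH family. YTHDF2 is a cytoplasmic reader that binds m6A-marked mRNA and recruits the CCR4–NOT deadenylase, after which the mRNA is degraded. RBM11 is an RNA-binding protein with an RNA recognition motif that takes part in alternative splicing and is known for its expression in brain and testis. DDX19A is a DEAD-box ATPase of the nuclear pore that remodels mRNA-protein particles at the end of mRNA export, and it has a close paralog, DDX19B, with which its reads may be shared.

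The oligonucleotides that identify *YTHDF2* in the study are its pair of quantitative PCR primers, which are shown because no other sequence of the 3 genes was at hand. They are written 5′ to 3′, with 20 bases in the forward and 21 in the reverse primer, and no PCR value was used.
YTHDF2-F: ctgcgaaacagcaacccaag
YTHDF2-R: tgccacaggacccttgttatc

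The input libraries of Y6M and Y30M differed in their make-up before any single gene was compared. The summed FPKM was 683862 to 702778 in Y6M and 587932 to 624025 in Y30M, and between 16947 and 18052 genes were above 0 in a library. Depths relative to Y30M replicate 1, read from the smallest steps of the FPKM values, were 0.752 to 1.07, and Y6M replicate 3 was the shallowest. Both libraries numbered 3 deviated from their group means alike, with a correlation of 0.604 across 19477 genes. Between a replicate 3 and a library of another number in the other group it was -0.294 to -0.474. Deviations from a group mean cancel out within the group, so these negative values follow from the positive one and are not separate evidence. Results of the 3 genes are therefore also given without both libraries numbered 3. Cell type markers moved with age as well. The 4 matched Sertoli cell markers of a list of 11 (*SOX9*, *FSHR*, *DHH* and *INHBA*) summed to 201 to 241 FPKM in Y6M and 29.7 to 50.6 FPKM in Y30M, the 2 matched endothelial markers of 3 to 14.8 to 22.0 and 3.69 to 6.95 FPKM. The 2 matched spermatocyte markers of 9 (*SYCP3* and *BOLL*) summed to 2.13 to 5.65 FPKM in Y6M and 35.9 to 88.6 FPKM in Y30M, and the 3 matched spermatid markers of 11 (*GSG1*, *OXCT2* and *PDHA2*) to 0.922 to 1.49 and 616 to 1730 FPKM. Of the spermatid markers 2, *GSG1* and *OXCT2*, could be matched only through the study's table of differential genes, so that their change was given by the matching. No marker of Leydig, peritubular or immune cells or of spermatogonia was matched to an ID, and the part of cell make-up in the results below was not tested.

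*YTHDF2*, the m6A reader, was the most highly expressed of the 3 genes at both ages. Its level was 17.2, 18.8 and 21.4 FPKM in Y6M replicates 1 to 3 and 29.1, 23.2 and 28.3 FPKM in the corresponding Y30M libraries. Every Y30M library lay above every Y6M library, and the groups were 1.77 FPKM apart at their nearest values. The mean was 19.1 ± 2.13 FPKM (SD, n = 3) in Y6M against 26.9 ± 3.21 FPKM (SD, n = 3) in Y30M, a ratio of 1.40. On log2(FPKM + 1) the log2 fold change was 0.47 (standard error 0.20, 95% interval -0.0090 to 0.94) and the Benjamini-Hochberg adjusted p was 0.102 in limma over all genes tested. The fold change on this scale was 1.38, and the p-value before adjustment was 0.0534 in limma. *YTHDF2* was therefore not a differentially expressed gene (DEG) by the thresholds of the study, which ask for a fold change of 1.5 or more and a p-value, before adjustment, no higher than 0.05. By quantitative PCR, a different measure, the study itself reported a significant rise at sexual maturity for every m6A reader it measured. *YTHDF2* was among the genes chosen for that assay. The p-value missed its threshold narrowly and met it in some alternative fits, whereas the fold change reached 1.5 only on TPM. Over all genes 46.6% met both thresholds, 27.6% higher and 19% lower in Y30M, and the groups did not overlap in 54.1% of genes, 32.2% with Y30M higher. On TPM, which is FPKM brought to an equal total per library, *YTHDF2* passed with a log2 fold change of 0.64 (limma, adjusted p = 0.0395), and without both libraries numbered 3 the value was 0.51 (limma, adjusted p = 0.141). In bulk testis RNA, a different number of cells that express a gene and a different amount of its RNA per cell cannot be told apart.

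*RBM11*, the splicing regulator, had the lowest level of the 3 genes and a wide spread among the Y30M libraries. It was measured at 1.30, 2.13 and 2.21 FPKM in Y6M replicates 1 to 3 and at 3.41, 2.43 and 8.75 FPKM in Y30M replicates 1 to 3. The groups did not overlap, as in 54.1% of all genes (32.2% with Y30M higher). Only 0.212 FPKM separated Y6M replicate 3 from Y30M replicate 2, and Y30M replicate 3 was far above the other libraries. The means were 1.88 ± 0.503 FPKM and 4.86 ± 3.40 FPKM (SD, n = 3 each), a ratio of 2.59. The log2 fold change was 0.89 (standard error 0.43, 95% interval -0.13 to 1.91). In limma the p-value was 0.0781 before adjustment and 0.140 after it, so that *RBM11* was not called. With the replicate number as a block it was called (standard error 0.36, limma, unadjusted p = 0.0463, adjusted p = 0.0816), where 50.9% of all genes were called. It was also called on TPM (log2 fold change 1.02), among genes with a mean of at least 1 FPKM, and without Y30M replicate 2 (1.20), whereas the change was 0.45 without Y30M replicate 3 and 0.54 without both libraries numbered 3 (limma, adjusted p = 0.232).

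*DDX19A*, the export helicase, was measured at 12.4, 11.3 and 15.7 FPKM in Y6M replicates 1 to 3 and at 11.0, 9.38 and 14.6 FPKM in Y30M replicates 1 to 3. The groups overlapped over most of their range, and in each group replicate 3 was the highest and replicate 2 the lowest. Set side by side by replicate number, the level in Y30M was 0.888, 0.828 and 0.928 times that in Y6M for replicates 1, 2 and 3. The labels name no pairing, so these ratios are not those of 3 matched pairs. With the replicate block *DDX19A* was still not called. The means were 13.2 ± 2.29 FPKM and 11.7 ± 2.66 FPKM (SD, n = 3 each). The log2 fold change of -0.17 (standard error 0.26, 95% interval -0.78 to 0.44) was smaller than the spread between yaks (limma, adjusted p = 0.638). On TPM its direction turned, at a log2 fold change of 0.0016, and without both libraries numbered 3 it was -0.20. How many of these fragments came from *DDX19B* was not tested, and *DDX19B* itself was not matched to an ID.

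**Figure D1:**
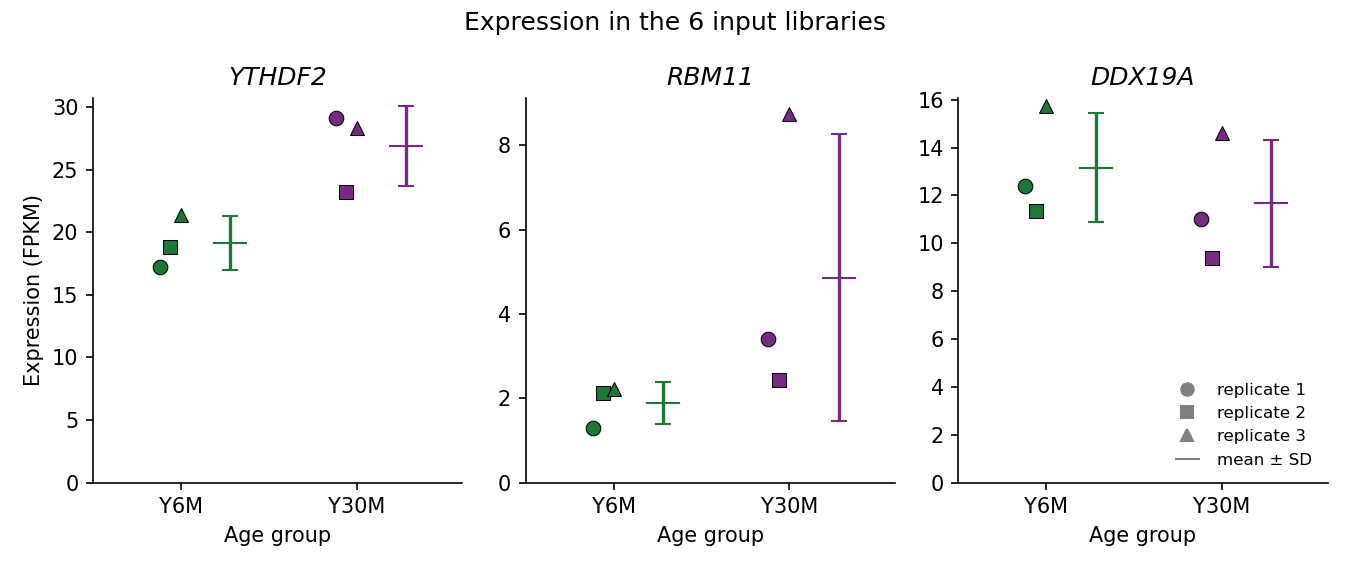
Expression of *YTHDF2*, *RBM11* and *DDX19A* (FPKM, linear axes from 0, a scale of its own for each gene) in the 6 input libraries, with each library as a point, its shape giving the replicate number, and the group mean ± SD beside the points. The Y30M points lie above the Y6M points for *YTHDF2* and *RBM11*, with *RBM11* of Y30M replicate 3 at 8.75 FPKM, and the *DDX19A* points of both ages overlap.

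Since FPKM is scaled by transcript length, the levels of the 3 genes can be set against each other. In each of the 6 libraries the order was *YTHDF2*, *DDX19A*, *RBM11*, and the ranges did not overlap within a group: the lowest *YTHDF2* values, 17.2 FPKM among the Y6M and 23.2 FPKM among the Y30M libraries, were above the highest *DDX19A* values of 15.7 and 14.6 FPKM. The closest neighbours were *RBM11* in Y30M replicate 3 at 8.75 FPKM and *DDX19A* in Y30M replicate 2 at 9.38 FPKM. Among the genes above 0, the mean of *YTHDF2* stood at the percentile 76.9 in Y6M and 77.7 in Y30M, that of *RBM11* at 38.2 and 47.2, and that of *DDX19A* at 69.6 and 62.2. An exact two-sided permutation test of the group means gave p = 0.1 for *YTHDF2* and for *RBM11* and p = 0.5 for *DDX19A*, where 0.1 is the smallest p that 3 against 3 yaks allow.

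The genes whose pattern over the 6 input libraries was most like each of the 3 were taken from 2001 named genes with a mean of at least 1 FPKM, by Pearson's r on log2(FPKM + 1). Names came only from the study's supplementary tables, which include its differential genes and peaks. The libraries share the age groups and the depth described above, so r is given as a description. Patterns shared with the 3 genes follow from this choice and are not a separate result. For *YTHDF2* they were *KDM7A*, a histone demethylase (r = 0.993), *RGS2*, a regulator of G protein signalling (0.991), and *CNOT9*, a subunit of the CCR4–NOT complex (0.990), and 201 of the genes had r of at least 0.9. All of these 3 genes were higher in every Y30M library than in any Y6M library, as were 32.2% of all genes tested. Y30M replicate 2 was the lowest of its group, as for *YTHDF2* itself. For *RBM11* they were *SLF1*, which takes part in DNA repair (r = 0.973), *PIK3CB*, a catalytic subunit of phosphoinositide kinase (0.973), and *PRMT9*, an arginine methyltransferase (0.971), and 60 genes reached 0.9. *SLF1* was at 9.10 FPKM and *PIK3CB* at 10.6 FPKM in Y30M replicate 3, the library in which *RBM11* was also highest. For *DDX19A* they were *NEK3*, a protein kinase (r = 0.991), *METTL18*, a histidine methyltransferase (0.989), and *ANGEL2*, an RNA phosphatase (0.989), and 115 genes reached 0.9. These 3 genes were highest in replicate 3 of each group: *METTL18* was at 13.9 FPKM in Y6M replicate 3 and 10.3 FPKM in Y30M replicate 3, and between 1.64 and 5.18 FPKM in the other libraries.

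**Figure D2:**
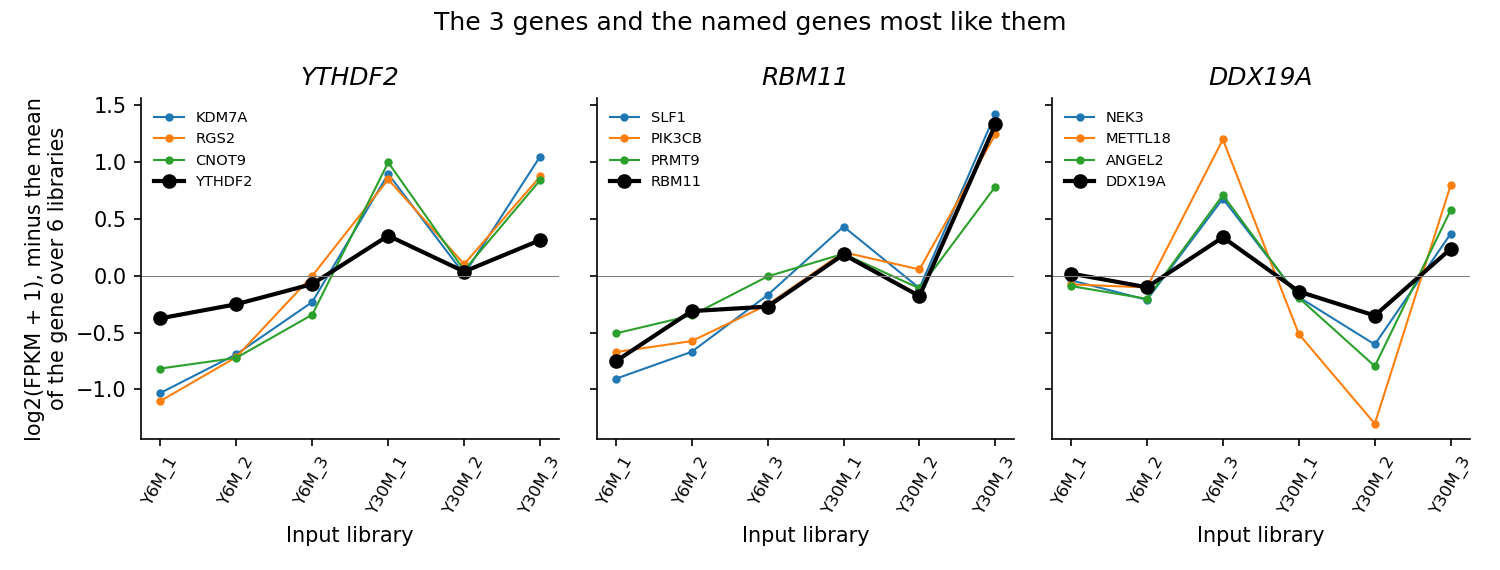
Level of each of the 3 genes (black) and of the 3 named genes most like it (coloured) in the 6 input libraries, as log2(FPKM + 1) minus the mean of the gene over the libraries; lines only join the points of 1 gene. The *YTHDF2* panel separates Y6M from Y30M, the *RBM11* panel peaks in Y30M replicate 3, and the *DDX19A* panel peaks in replicate 3 of both ages.

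All 3 genes carried m6A peaks in the authors' table of compared peaks, which was called over the pooled libraries of both ages and gives each peak a fold enrichment of IP over input with its own false discovery rate (FDR). Of the 5 peaks, 4 were enriched at an FDR of at most 0.05, against 69% of all compared peaks, and 3 at an FDR of at most 0.01, against 66.9%. The table has no value per yak, so the enrichment has no replicate error. Positions are on LU_Bosgru_v3.0 and count from 1, and all 5 peaks lie on the plus strand.

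The *YTHDF2* peak was the most enriched of the 5. It runs on chromosome 2 from 13072434 to 13073167, 734 bp in a single block, and had a fold enrichment of 4.15 with an FDR of 1.58e-23. This was higher than in 95.9% of compared peaks, whose median was 2.31 (quartiles 1.78 and 3.0), and only 2.64% of peaks had a lower FDR. The peak was called with the same start and end in the list of Y6M and in that of Y30M. Identical limits were found for 130 peaks on chromosomes 1 and 2, the chromosomes covered by both lists, which is 10.1% of each list.

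The *RBM11* peak runs on chromosome 1 from 14233210 to 14233507, 298 bp in a single block, close to the median of 296 bp over all peaks, and the study's annotation places it in the 3′UTR. Its fold enrichment was 2.75 with an FDR of 3.39e-06, above 66.7% of compared peaks. The Y30M list gave the same limits, and the Y6M list began at 14233260, so that the Y6M peak of 248 bp lacked the first 50 bp. For the peaks of *YTHDF2* and *DDX19A* no annotation as exon or UTR was used here.

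*DDX19A* had 3 peaks on chromosome 20, as had 19.6% of the genes with a peak when those with more than 3 are counted in, while 52.6% had 1. The first spans 48866065 to 48871228 but consists of 3 blocks of 2, 51 and 97 bp, and had a fold enrichment of 1.86 (FDR 0.0126), below the median of all peaks. The second spans 48879027 to 48880373 with blocks of 122 and 77 bp, and its fold enrichment of 2.43 had an FDR of 1, as had 27.8% of compared peaks. The third, 48881411 to 48882304, is a single block of 894 bp with a fold enrichment of 3.54 (FDR 3.16e-11), above 87.8% of compared peaks. Only the third was in the Y6M list, with the same limits. The Y30M list covers chromosomes 1 and 2 only, so it holds nothing on chromosome 20.

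**Figure D3:**
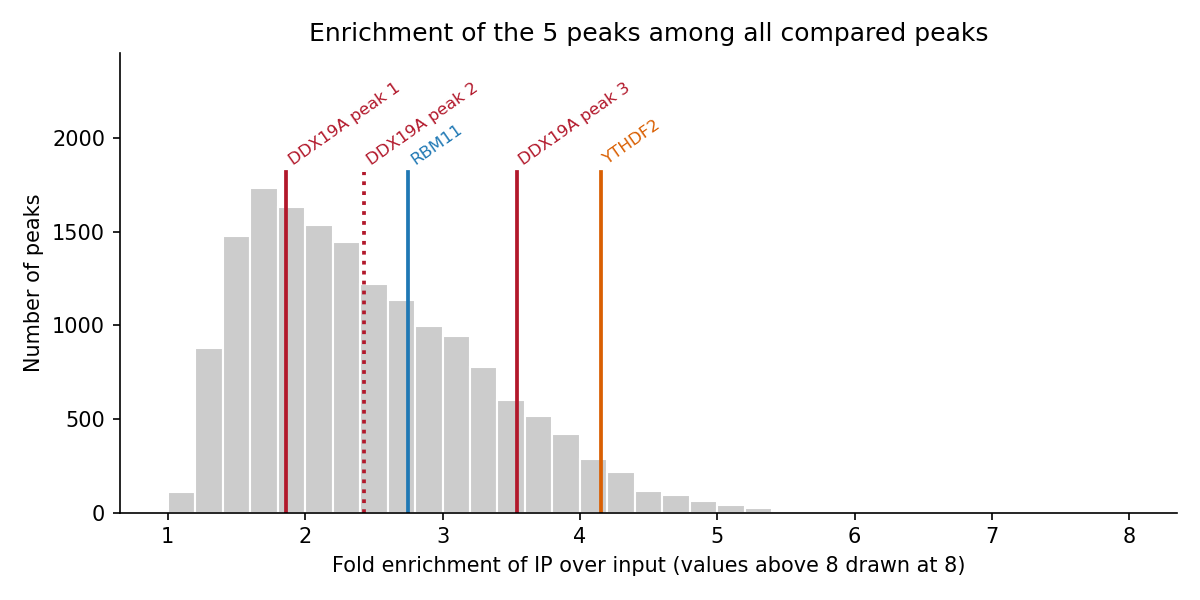
Fold enrichment of IP over input of the 5 peaks of *YTHDF2*, *RBM11* and *DDX19A* (vertical lines) on the histogram of all 16318 compared peaks, with number of peaks on the y axis; the dotted line marks the peak that was not enriched at an FDR of 0.05. *YTHDF2* at 4.15 and the third *DDX19A* peak at 3.54 lie in the upper tail, and the first *DDX19A* peak at 1.86 lies below the median of 2.31.

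Inside the peaks of each group's list, the authors scored single adenosines from 0 to 1 and called those with a combined score of at least 0.528 predicted m6A sites, in classes from low to very high confidence. The tool behind the score is not given in the sources used here. In all 75 scores of the 3 genes, the combined score equalled 0.6 times a score named binary plus 0.4 times a score named spectrum, within 0.001. A combined score of at least 0.7 was reached by 0.94% of all adenosines in the Y6M list and 0.915% in the Y30M list. These are predictions for 1 list per age, so they have no replicate error, and the intervals below cover counting error only.

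In the *YTHDF2* peak 14 of 20 scored adenosines were predicted as sites (70.0%, exact 95% binomial interval 45.7 to 88.1), 9 with very high, 2 with high, 1 with moderate and 2 with low confidence. The Y6M and Y30M lists gave the same 20 adenosines and the same scores. In peaks with the same limits in both lists 0 of 15193 adenosines differed in score. The same scores are therefore no measure of methylation at the ages, and whether methylation of *YTHDF2* differs with age was not tested. Over the whole lists 21.5% of scored adenosines were predicted in Y6M and 19.7% in Y30M, but those lists score the whole span of a peak, introns included. In the peaks with a single block and the limits of the compared table, as here, the shares were 44.5% and 41.9%. The mean score of the *YTHDF2* peak was 0.616 (SD over adenosines 0.128), higher than in 95.9% of the 344 such Y6M peaks with at least 10 scored adenosines and in 88.9% of the 36 such Y30M peaks, and the share predicted was higher than in 84.9% and 86.1% of them. The highest scores were 0.764 at 13072743, 0.762 at 13072815 and 0.764 at 13072853, near the middle of the peak, 8 of the 20 scores reached 0.7, and the predicted sites were 4 to 112 bp apart with a median gap of 49 bp. The binary score was what separated the calls: it was 0.446 to 0.905 in the 14 predicted adenosines and 0.251 to 0.387 in the other 6, whereas the spectrum score was 0.479 to 0.793 and 0.551 to 0.782. At 13072736, 7 bp before the site at 13072743, the spectrum score was 0.782 but the binary score 0.272, and the adenosine was not predicted.

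In the *RBM11* peak 4 of 8 adenosines were predicted in Y6M (50.0%, exact 95% binomial interval 15.7 to 84.3) and 5 of 10 in Y30M (18.7 to 81.3). In single-block peaks with the limits of the compared table, the shares were 44.5% in Y6M and 41.9% in Y30M. The Y6M peak of *RBM11* does not have those limits, so it is outside the set that gave 44.5%. The Y30M share of *RBM11* was higher than in 55.6% of the 36 such Y30M peaks with at least 10 scored adenosines. The strongest site, at 14233309, scored 0.721 in Y6M and 0.770 in Y30M, very high confidence in both. The 2 further adenosines of Y30M, at 14233222 and 14233238, lie in the 50 bp that the Y6M peak lacked, and neither was predicted. Of the 8 adenosines in both lists, 6 had a higher combined score in Y30M, by 0.021 to 0.049, and 2 had the same score. The binary score was the same in all 8, and the spectrum score carried the difference. The 6 that differed were bases 31 to 109 of the Y6M peak, and those with the same score lay from base 141 on. The adenosine at 14233334 scored 0.525 in the Y6M list, not predicted, and 0.570 in the Y30M list, moderate confidence. A further 2 adenosines were of moderate confidence in Y6M and of high confidence in Y30M. On chromosomes 1 and 2, scores differed between the lists only within 130 bp of a peak limit that differed (2795 of 2925 adenosines). Farther away 0 of 97250 differed, and in peaks with the same limits 0 of 15193. Whether methylation of *RBM11* differs with age was not tested.

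In the last of the *DDX19A* peaks 8 of 17 adenosines were predicted in Y6M (47.1%, exact 95% binomial interval 23.0 to 72.2), 3 with very high, 2 with high, 2 with moderate and 1 with low confidence. The share was higher than in 48.5% of the 344 single-block Y6M peaks, close to their middle. Of the predicted sites 5 lay within the first 170 bp, and the widest gap between neighbours, 364 bp, followed them. The first lay at 48881412, the second base of the peak, with a score of 0.698, and the highest score in the peak was 0.702. Per 100 bp the peak held 0.895 predicted sites, against 1.91 in *YTHDF2* and 1.61 in *RBM11* in the same list. The other peaks of *DDX19A* had no scored adenosine in the Y6M list.

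**Figure D4:**
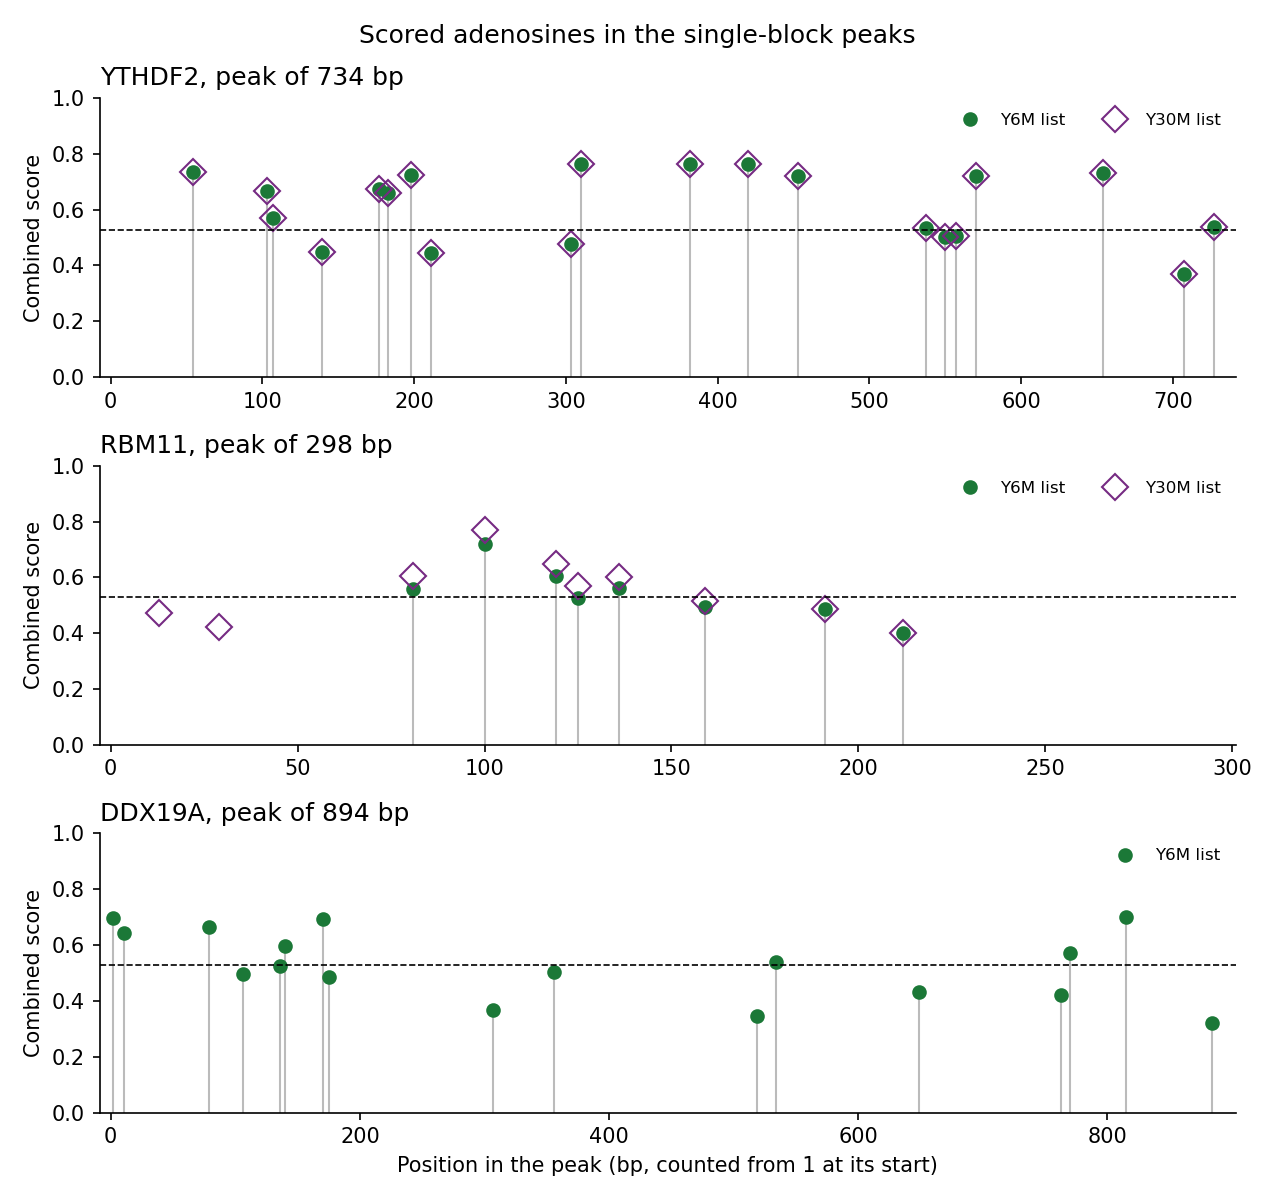
Combined score (y axis, 0 to 1) of each scored adenosine against its position in the peak (bp) for the *YTHDF2*, *RBM11* and last *DDX19A* peaks, with the Y6M list as filled circles, the Y30M list as open diamonds and the limit for a predicted site of 0.528 dashed. The symbols coincide in *YTHDF2*, and in *RBM11* 6 diamonds lie above their circles by 0.021 to 0.049, near a peak start that differs between the lists. *DDX19A* has the Y6M list only.

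The surroundings of the 3 genes were read from lists of their pathways. Symbols could be paired with IDs only for genes named in the study's supplementary tables, which include its tables of differential genes and peaks, so that the matched genes are not an independent sample and no list was tested; *DDX39A* and a few others stand in more than 1 list. All medians below stand beside a median log2 fold change of 0.04 over all genes tested.

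Of 36 genes of the m6A machinery and the decay partners of YTHDF2, 6 were matched, of which 3 rose, 1 fell and 2 were not called (66.7% called, against 46.6% of all genes). *CNOT9* rose by 1.25 on the log2 scale (standard error 0.29, limma, adjusted p = 0.0114), with a mean of 25.7 ± 4.81 FPKM (SD, n = 3) at 6 months and 64.6 ± 20.7 FPKM (SD, n = 3) at 30 months. *UPF1*, the RNA helicase of nonsense-mediated decay that also acts with YTHDF2, rose from 63.2 to 152 FPKM (log2 fold change 1.23), but was named only in the study's table of differential genes. The IGF2BP readers, which are known to stabilise m6A-marked mRNA, changed in opposite directions. *IGF2BP2* fell from 22.4 ± 0.312 to 5.90 ± 1.74 FPKM (log2 fold change -1.79, limma, adjusted p = 0.00138), whereas *IGF2BP3* rose from 0.730 to 2.55 FPKM (log2 fold change 1.02). *METTL5*, an rRNA methyltransferase, had a log2 fold change of -0.16 and *CNOT6L*, a deadenylase of CCR4–NOT, one of -0.44, and neither was called. The median of the 6 was 0.43, beside the 0.47 of *YTHDF2*.

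Of 15 export partners of DDX19A, 3 were matched and 2 were called (66.7%, against the same 46.6%). *NUP42*, a nuclear pore protein that binds the DDX19 activator GLE1, rose from 3.51 to 56.7 FPKM (log2 fold change 3.65) and *DDX39A*, a DEAD-box helicase of early export steps, from 17.9 to 110 FPKM (log2 fold change 2.54). *SARNP*, which binds the DDX39 helicases, was not called, with 0.31. Their median was 2.54, beside the -0.17 of *DDX19A*.

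Of 13 splicing regulators set beside RBM11, 3 were matched and 1 was called (33.3%, against 46.6% of all genes). *SRSF6* fell from 115 to 36.1 FPKM (log2 fold change -1.66, limma, adjusted p = 0.0125), while *SRSF1* with -0.52 and *TRA2A* with -0.56 were not called. Their median was -0.56, beside the 0.89 of *RBM11*.

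Among 12 other members of the DDX, DHX and RBM families, 5 were called (41.7%, against 46.6% of all genes). *DDX39A*, *RBM19* (log2 fold change 1.56), which takes part in ribosome biogenesis, and *DDX56* (1.43), a nucleolar helicase, rose. *DDX58*, the viral RNA sensor RIG-I, had a log2 fold change of -1.23 (limma, adjusted p = 0.0668), and *DHX33* one of -0.86 (adjusted p = 0.0900), so that both fell by the unadjusted threshold only. The other 7, with log2 fold changes from -0.38 (*RBM6*) to 0.51 (*RBM45*), were not called, and the median of the 12 was 0.16. Another list, which overlaps the last, held 36 genes that carried an RNA-binding or splicing term in the part of the study's peak tables that was read, which covers only the first stretch of the gene IDs, and gave 11 that rose, 3 that fell and 22 not called (38.9% called), with a median of 0.31. The largest changes among them were those of *CFAP65*, a sperm flagellum protein (log2 fold change 3.89), *MKRN1*, a ubiquitin ligase that binds RNA (3.40, from 29.4 to 318 FPKM), *RPL5*, a ribosomal protein with many near-identical pseudogene copies in mammals (-3.04, from 1015 to 129 FPKM), *DDX39A* and *DCP1B*, a subunit of the decapping complex (1.66). *YTHDF2* and *RBM11*, at 0.47 and 0.89, thus lay between the median of these RNA-binding genes and their extremes, and *DDX19A* lay below the median.

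**Figure D5:**
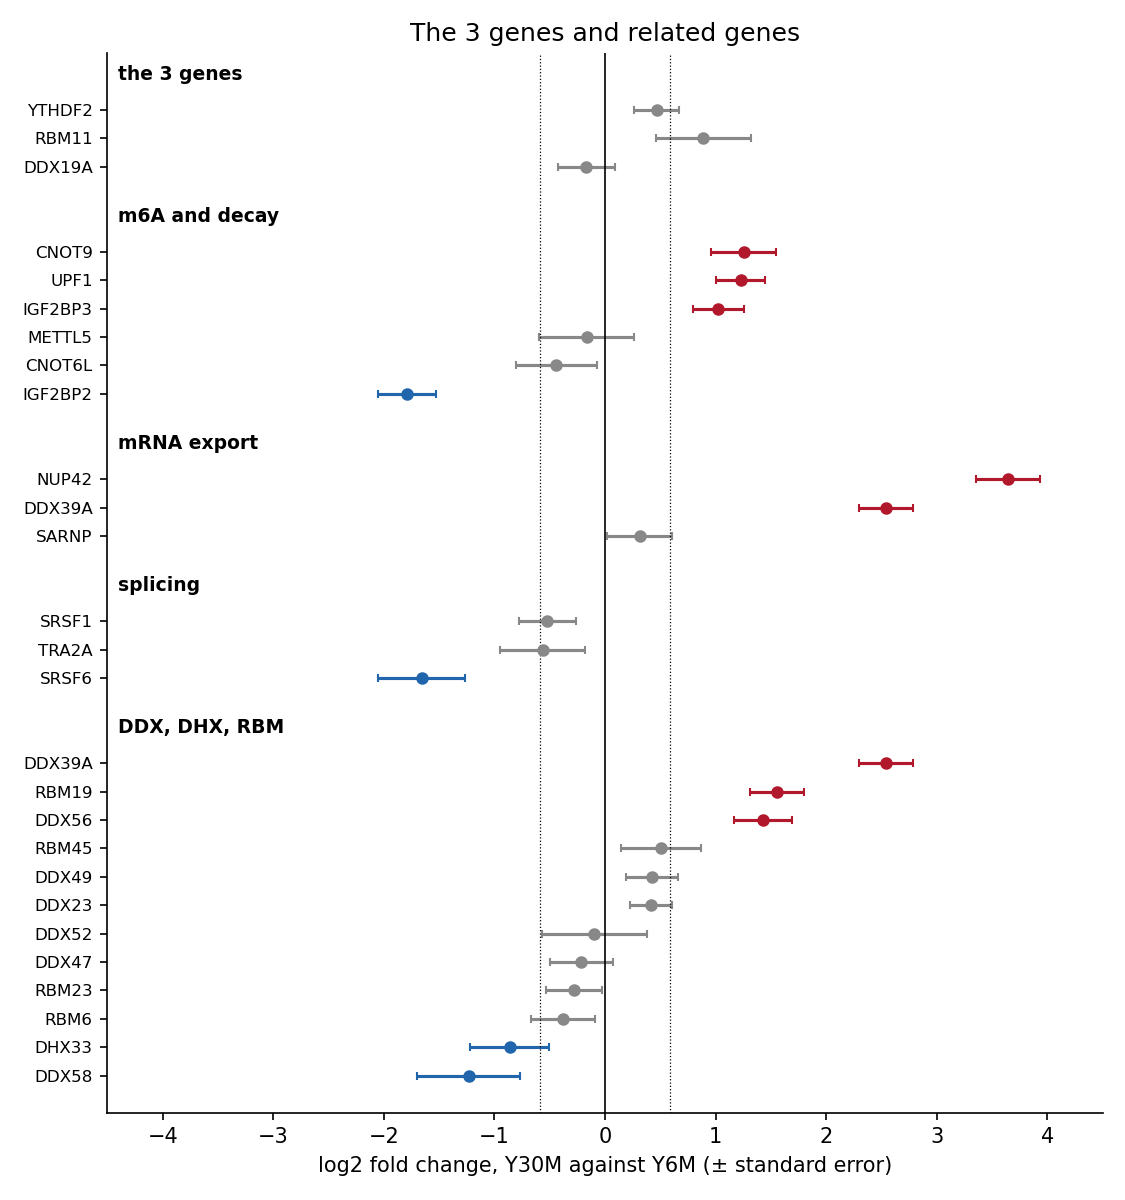
log2 fold change of Y30M against Y6M (x axis, ± standard error from limma, 3 against 3 libraries) of the 3 genes and of the matched genes of 4 lists, with dotted lines at a fold change of 1.5; red marks DEGs that rose, blue those that fell and grey genes not called. *YTHDF2*, *RBM11* and *DDX19A* are grey at 0.47, 0.89 and -0.17, and *NUP42* lies farthest right at 3.65.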

How the data were processed

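The authors trimmed reads with Trimmomatic, removed rRNA reads with SortMeRNA, aligned to LU_Bosgru_v3.0 with HISAT2, deposited FPKM values of the 6 input libraries, called peaks with MeTDiff and annotated them with ChIPseeker. The deposited table of compared peaks gives each peak's blocks, fold enrichment over input and p-value and FDR on a log10 scale. It also has 4 columns of the authors' comparison of the ages (a log10 FDR, a log10 p and a log2 fold change under both signs), which were not used. The deposited lists of adenosines hold binary, spectrum and combined scores, for chromosomes 1 and 2 only in Y30M. BED starts were counted from 1.

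Genes above 0 in at least 1 library (19477 of 20953) were tested on log2(FPKM + 1) with limma 3.58.1 (trended eBayes) in R 4.3.3, with Benjamini-Hochberg adjustment, after a test on simulated data. A fold change on this scale understates that of low genes. Permutation tests used scipy 1.17.1. FPKM values carry no counts, so precision was read from the spread between the 3 yaks of a group. Whether same-numbered yaks deviate together was read from the data, as the labels name no pairing: over all genes the correlations of deviations were 0.209, 0.283 and 0.604 for replicates 1, 2 and 3. All exceed 0.1, although unlike-numbered yaks gave 0.322 (Y6M 1 with Y30M 2) and 0.253 (Y6M 2 with Y30M 1), so that only replicate 3 stands out by its number, and the replicate number was used as a block in an alternative fit. Since deviations cancel out within a group, these correlations depend on each other. Symbols came from supplementary tables of which only part was read (2153 IDs). Genes were named as the 3 genes, at most the 5 largest changes per list, and the 3 genes most like each. *METTL5* of the m6A list and *RBM6* and *RBM45* of the family list were named in addition. Members and lists were chosen with earlier results of these data known. Alternatives were other pseudocounts, filters, scalings and thresholds, the block, and each library left out.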

Additional observations from a re-analysis of the deposited data

How the results depend on the processing

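With each of 14 alternatives, *YTHDF2* and *RBM11* stayed above 0, at log2 fold changes of 0.35 to 0.64 and 0.45 to 1.20 (adjusted p 0.0395 to 0.310 and 0.0691 to 0.324 in limma). *YTHDF2* was called in 1 of the 14, on TPM (0.64), and *RBM11* in 4, namely on TPM (1.02), with a mean of at least 1 FPKM (0.89), with the replicate block (0.89) and without Y30M replicate 2 (1.20). For *YTHDF2* the unadjusted limma p also met its threshold without a trend in eBayes (0.0177, adjusted 0.0429) and without a filter (0.0199). The same held without Y30M replicate 2 (0.0300) and with the block (0.0469). In these fits only the fold change, at log2 values of 0.47 to 0.57, was below its threshold. *DDX19A* was called in 0 (-0.33 to 0.0016, adjusted p 0.337 to 0.996), its sign turning on TPM (0.0016). TPM raises Y30M, whose summed FPKM was lower. Leaving out 1 library in turn gave 0.40 to 0.57 for *YTHDF2*, 0.45 to 1.20 for *RBM11*, -0.33 to -0.037 for *DDX19A* and 8157 to 9090 DEGs. The replicate block changed the call of neither *YTHDF2* nor *DDX19A* and gave 9909 DEGs in place of 9080. A fold change of at least 2 gave 7111 DEGs, an adjusted p of at most 0.05 gave 8129 and a pseudocount of 0.1 gave 10175. Calls in the gene lists stayed within 1.5 times. Leaving out both libraries numbered 3 was chosen after seeing the data. With a score of at least 0.7 in place of the authors' call, predicted adenosines fell to 40% in *YTHDF2* (both lists), 12.5% (Y6M) and 10.0% (Y30M) in *RBM11* and 5.88% in *DDX19A*. Over the whole Y6M and Y30M lists the shares were 0.94% and 0.915%. Those lists include introns and are not a like set for these single-block peaks, for which no share at 0.7 was computed. No counts were used, so what depth limits was not told apart from the spread between yaks.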

Other observations

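The scores of *RBM11* and *YTHDF2* were set beside those of all 115368 adenosines in both lists on chromosomes 1 and 2. The combined score was the same in both lists for 97.6% of them and the binary score for 99.4%. As the counts below show, this sameness followed the peak limits, so it does not measure whether methylation is stable with age. In peaks with the same limits in both lists, as in *YTHDF2*, 0 of 15193 adenosines differed. Within 130 bp of a limit that differed, as for the 6 adenosines of *RBM11*, 2795 of 2925 (95.6%) differed, and farther away 0 of 97250, with this distance chosen after the scores were seen. These are counts over 1 list per age, with no replicate.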
